A study of Mus musculus with 4 samples.

Results

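Ccl5, Ccl11, Ccl17, Ccl22 and Ccl24 are 5 CC chemokines that draw lymphocytes and eosinophils into tissue, and they were matched by symbol among the 18596 genes that every library listed. LLC cells, a transplantable mouse line of Lewis lung carcinoma, were grown as subcutaneous tumors in female C57/BL6N mice of 6 to 8 weeks, and tumors were dissociated 72 h after radiation. The radiotherapy group (RT) held 3 libraries of 1 tumor each (RT1, RT2 and RT3), given 24 Gy in 3 fractions of 8 Gy, and the mock-treated control (NT) was 1 library made from 3 tumors pooled. After filtering, 55058 of 55805 cell barcodes remained, with 9976 in NT, 15029 in RT1, 14993 in RT2 and 15060 in RT3. Their UMIs (unique molecular identifiers, each marking 1 captured RNA molecule) summed to 69266354, 77700882, 108699270 and 85051677.

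With a single NT library, differences between NT and RT have no test. The values of all libraries are given, with RT as mean ± SD (n = 3) where a mean is used and with 95% intervals that cover counting error only. Levels are in CPM, the UMIs of a gene per 1000000 UMIs of the same library or of the same cells. All 3 RT ratios have this NT library as their denominator, and an error in it would move them together. The RT2 library stands apart in how its table was made, since it listed genes by symbol alone and had no barcode above 11.95% mitochondrial UMIs, while the others reached 91.5% to 97.0%. Between 175 and 274 barcodes were shared by each pair of libraries, at most 1.83% of the smaller one.

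Chemokines bind receptors on the surface of leukocytes and guide the cells along a gradient. Ccl5 acts through several receptors, Ccr1 and Ccr3 among them, and is made by activated T and NK cells, by macrophages and by many cell types under interferon or NF-kB signaling. Ccl17 and Ccl22 share the receptor Ccr4, found on regulatory and type 2 helper T cells, and are typical products of dendritic cells. Ccl11 (eotaxin-1) and Ccl24 (eotaxin-2) share the receptor Ccr3 of eosinophils, and fibroblasts and macrophages respectively are known to make them, often in response to interleukin-4 and interleukin-13, which signal through the transcription factor Stat6.

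Ccl5 (ENSMUSG00000035042) and Ccl11 (ENSMUSG00000020676) lie on chromosome 11, Ccl17 (ENSMUSG00000031780) and Ccl22 (ENSMUSG00000031779) on chromosome 8 and Ccl24 (ENSMUSG00000004814) on chromosome 5. In the reference used here the starts of Ccl22 and Ccl17 are 64769 bases apart. RefSeq promoters of the build GRCm38.p6, from 250 bases before to 50 bases after the start, were at hand for 2 of the 5 genes and are shown because this pair of neighbors shares a receptor and was highest in mature dendritic cells, but differed in the RT to NT ratio. Ccl17 is at chr8:94810203-94810502 and Ccl22 at chr8:94745434-94745733, both on the plus strand, and capitals mark matches to TTCNNNNGAA (the spacing known for Stat6) and to TTCNNNGAA (the spacing of other STAT proteins), searched on both strands.
Ccl17: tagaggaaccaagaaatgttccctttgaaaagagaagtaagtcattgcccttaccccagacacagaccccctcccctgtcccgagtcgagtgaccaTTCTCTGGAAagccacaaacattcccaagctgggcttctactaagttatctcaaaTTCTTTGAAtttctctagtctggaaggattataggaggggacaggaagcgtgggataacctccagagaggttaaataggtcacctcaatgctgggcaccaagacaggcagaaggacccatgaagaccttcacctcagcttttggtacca
Ccl22: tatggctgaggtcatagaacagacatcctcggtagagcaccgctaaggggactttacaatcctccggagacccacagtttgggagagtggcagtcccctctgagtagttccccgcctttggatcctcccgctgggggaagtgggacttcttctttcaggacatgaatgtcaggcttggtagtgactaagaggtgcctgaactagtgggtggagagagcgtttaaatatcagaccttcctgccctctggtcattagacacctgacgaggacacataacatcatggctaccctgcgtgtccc
The Ccl17 window held TTCTCTGGAA at -154 to -145 and TTCTTTGAA at -99 to -91 from the start, and these letters were not in the Ccl22 window. Of 32851 promoters of this length, 6.95% held the first motif and 8.3% the second. The NF-kB consensus, present in 8.46% of all promoters, was in neither window. A match describes letters and not a bound site.

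Across all cells, 4 of the 5 chemokines were at least doubled in every RT library and Ccl22 was not. This rule of size, log2 ratios of 1 or more in all 3 RT libraries, was put to 14749 genes with at least 40 UMIs over the 4 libraries. By it 5.61% of all genes were higher and 0.244% lower. Ccl17, with 38 UMIs in NT, reached 40 only through the RT libraries. The median of the 5 mean log2 ratios was 1.26, and that of all genes tested 0.0080. In bulk sums like these, more cells of a type and more RNA per cell cannot be told apart.

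Ccl24 differed most. It stood at 1.21 CPM in NT (95% interval 0.967 to 1.50) and at 13.1 (RT1), 17.4 (RT2) and 7.08 CPM (RT3), a mean log2 ratio of 3.27 ± 0.66 (SD, n = 3), or 9.62-fold. Every RT library lay far above the NT interval, and RT3 was the lowest of the 3.

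Ccl17, the least abundant in NT, was at 0.549 CPM there (0.388 to 0.753, 38 UMIs) and at 2.29, 3.53 and 1.81 CPM in the RT libraries, a mean log2 ratio of 2.14 ± 0.49. Ccl5 was at 27.8 CPM in NT (26.6 to 29.1) and at 59.9, 83.0 and 59.2 CPM in RT, a mean log2 ratio of 1.26 ± 0.28. Ccl11 was at 4.92 CPM in NT (4.41 to 5.47) and at 10.5, 10.6 and 12.1 CPM in RT, a mean log2 ratio of 1.16 ± 0.12. For these 3 genes too, every RT value lay above the NT interval.

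Ccl22 was at 1.04 CPM in NT (0.813 to 1.31, 72 UMIs) and at 0.888, 1.27 and 0.882 CPM in RT, a mean log2 ratio of -0.06 ± 0.30. All 3 RT values lay within the counting interval of NT. The RT libraries are shallower per cell than NT in the median (3865, 5200.0 and 4158 UMIs against 5709), and Ccl5 and Ccl11 lay close to the doubling threshold. On UMIs per 1000 cells, and likewise with cells thinned to 2000 UMIs, 2 in place of 4 chemokines were doubled in every RT library. Thinning left out shallower cells, 2045 in NT and 4593, 3823 and 4625 in RT, so it changed both the depth and the set of cells. Without RT2 the mean log2 ratios were 1.10 for Ccl5, 1.19 for Ccl11, 1.88 for Ccl17, -0.23 for Ccl22 and 2.98 for Ccl24.

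**Figure D1:**
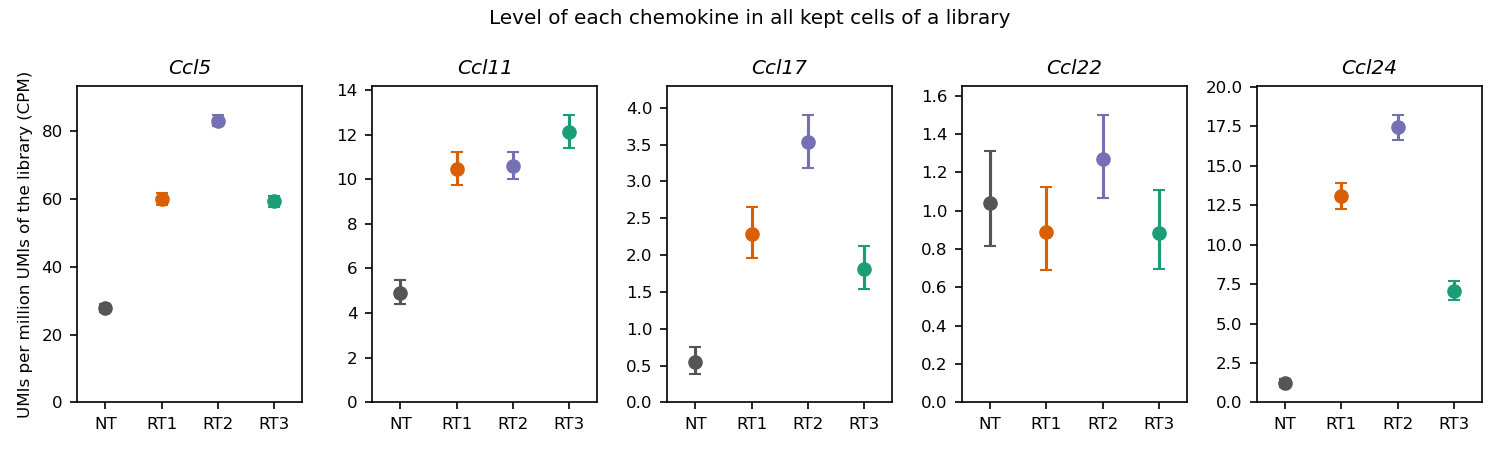
Level of each chemokine in all kept cells of each library, in CPM on a linear axis from 0 in each panel, with exact Poisson 95% intervals (counting error only). NT is 1 pool of 3 tumors and RT1 to RT3 are 1 tumor each. Every RT point lies above NT for Ccl5, Ccl11, Ccl17 and Ccl24, and the points of Ccl22 lie between 0.882 and 1.27 CPM in all 4 libraries.

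The cells that held these UMIs were found by clustering with chemokine and receptor genes left out, and 11 populations were named by their markers. They were tumor cells (29378), macrophages (7010), monocytes (5451), neutrophils (574), NK cells (485), CD8 T cells (405), fibroblasts (317), endothelial cells (255), CD4 T and Treg cells (155), mature dendritic cells (mature DC, 102) and pericytes (23). Mature DC are dendritic cells that have taken up antigen and left their resting state. Here they carried Ccr7 at 8242, 5251, 5144 and 5685 CPM and the cytoskeletal gene Fscn1 at 2741, 3063, 4091 and 2218 CPM in NT, RT1, RT2 and RT3, and there were 17, 22, 33 and 30 of them. Clusters with 19.8% of cells stayed unnamed, and 2 of these are described here.

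The first, here called the Lum-led cluster (3404 cells), carried the LLC marker Rhox5 at 944 to 1352 CPM beside matrix genes such as Lum and Dcn, but Col1a1 at only 2.01 to 15.3 CPM, against 18651 to 43610 CPM in fibroblasts. The second, the MHC class II-led cluster (788 cells), was led by H2-Ab1, H2-Aa, H2-Eb1 and Retnla and lay nearest to conventional dendritic cells without holding one of their markers among its top 10 genes. Macrophages were 6.93% of cells in NT and 16.5% (RT1), 16.3% (RT2) and 9.28% (RT3) in RT, and monocytes 4.54% in NT and 10.5%, 12.1% and 10.6% in RT. Tumor cells were 68.6% in NT and 48.4%, 44.8% and 56.7% in RT.

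Each chemokine had its own set of sources. Macrophages held the largest named share of Ccl5 UMIs on average over the 4 libraries, at 30.6%, though tumor cells held more in RT1 and RT3. Ccl24 was divided between macrophages (53.6% in NT and 33.9%, 31.9% and 32.7% in RT) and monocytes (22.6% in NT and 32.8%, 45.5% and 41.0% in RT), so that macrophages led in NT, from 84 UMIs in all, and by little in RT1, and monocytes led in RT2 and RT3. Mature DC held 81.9% of Ccl22 and 30.3% of Ccl17. The MHC class II-led cluster held 51.4% of Ccl17, and the Lum-led cluster 48.1% of Ccl11. With 4 libraries an exact sign-flip test of a source cannot go below p = 0.125, so these shares are given as a description. By the mean over the libraries, macrophages stayed the first named source of Ccl5 and mature DC that of Ccl17 and Ccl22 under every alternative run. For Ccl24 that mean was 38.0% in macrophages against 35.5% in monocytes, an order that in this clustering rests on NT. Other clusterings divided these cells differently, and macrophages then held 34.5% against 15.5% in monocytes without integration of the libraries, 39.3% against 11.6% at resolution 0.5 and 53.9% against 21.1% at resolution 1.2.

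**Figure D2:**
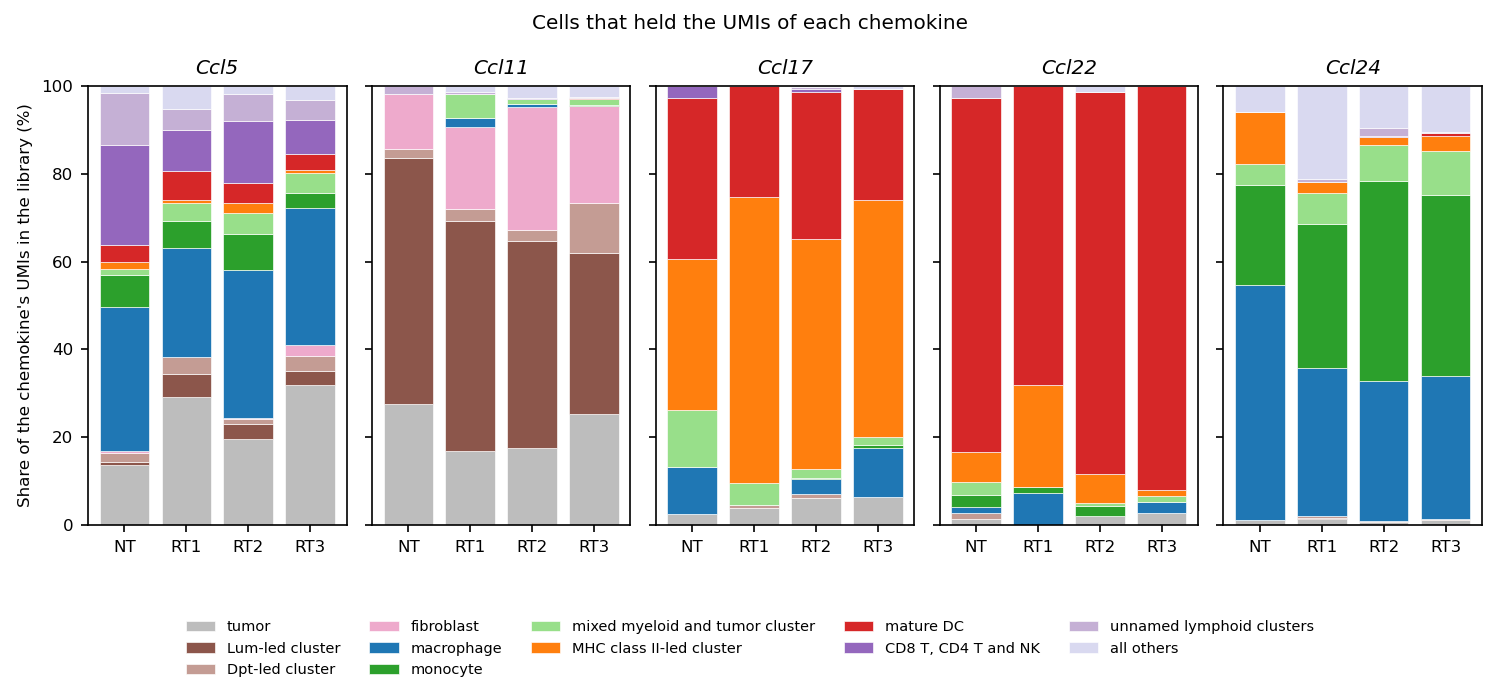
Share of each chemokine's UMIs held by each group of cells in each library, in percent, stacked to the library's total for that gene. Ccl22 is mostly mature DC (68.1% to 92.0%), Ccl17 is mostly mature DC and the MHC class II-led cluster, Ccl11 is tumor cells, the Lum-led cluster and fibroblasts, Ccl24 is mostly macrophages and monocytes, and Ccl5 is spread over most groups. All others holds the remaining named and unnamed clusters.

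Ccl5 was found in most populations, at very different levels. Over the 4 libraries, mature DC had the highest mean level (4268 CPM, range 1451 to 7876), though with only 17 cells in NT. CD8 T cells followed at 1359 CPM (1117 to 1677), then NK cells at 678 CPM (538 to 802) and CD4 T and Treg cells at 626 CPM (352 to 927). Macrophages were at 267 CPM (146 to 404), monocytes at 139 CPM (73.0 to 208), fibroblasts at 119 CPM (29.8 to 257) and tumor cells at 22.5 CPM (4.83 to 29.3). The ranges of neighbors in this order overlapped, except between CD8 T and NK cells and between fibroblasts and tumor cells.

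Lymphocytes and mature DC were few, and macrophages and tumor cells were the largest named holders in the RT libraries. Macrophages held 32.8% of Ccl5 UMIs in NT and 24.6% (RT1), 33.8% (RT2) and 31.3% (RT3) in RT. Tumor cells held 13.6% in NT and 29.2%, 19.6% and 32.0% in RT. CD8 T, CD4 T and NK cells together held 22.8% in NT and between 7.88% and 14.04% in the RT libraries.

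Tumor cells were the population where Ccl5 differed most evenly. Their level was 4.83 CPM in NT (4.27 to 5.45, 262 UMIs) against 29.3 (RT1), 28.0 (RT2) and 27.8 CPM (RT3), log2 ratios of 2.60, 2.53 and 2.52 (mean 2.55 ± 0.04, or 5.85-fold). The RT values lay close together and none came near the NT interval. Of the 3 chemokines with enough UMIs in tumor cells, Ccl5 was at least doubled in every RT library and Ccl11 was not. By this rule 3.7% of 13136 genes were higher. Ccl17 also met the rule, but it rests on 1 UMI in NT and 7, 24 and 10 in RT. It thus had enough UMIs to be tested only through the RT libraries, and its ratios have 1 NT molecule as their base. The call of Ccl17 is therefore not read as a difference, and its UMIs in tumor cells serve below as a background.

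The Lum-led cluster, which carries the same LLC marker, had nearly the same Ccl5 levels, at 4.29 CPM in NT and 29.9, 32.0 and 26.9 CPM in RT. In this cluster 2.8% of 10769 genes were doubled in every RT library. Ccl5 is not set against that share, since with 15 UMIs in NT it was testable there only through the RT libraries. Among the tumor clusters the highest Ccl5 in RT was in cluster 8, whose cells also had the highest level of 6 interferon-induced genes (Ifit1, Ifit2, Ifit3, Rsad2, Isg15 and Oasl1), antiviral effectors switched on by interferon. Cluster 8 had Ccl5 at 7.20 CPM in NT and at 144, 80.6 and 112 CPM in RT, with the 6 genes summing to 601 CPM in NT and 1702, 1565 and 1961 CPM in RT. The 6 genes took part in building the clusters, and Ccl5 did not. In the plot of tumor clusters, clusters with low interferon-induced levels were also higher in RT, such as cluster 1 at 0.918 CPM in NT and 10.5, 16.5 and 14.2 CPM in RT. The difference was smaller in cluster 9, at 12.5 CPM in NT and 25.6, 15.4 and 29.2 CPM in RT, and in the Dpt-led cluster, at 6.74 CPM in NT and 31.9, 12.4 and 19.3 CPM in RT, and neither was doubled in RT2. In all tumor cells the 6 genes summed to 91.6 CPM in NT and 197, 385 and 269 CPM in RT. In macrophages they lay below NT in every RT library, at 2753 CPM in NT and 1374, 1379 and 2351 CPM in RT.

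**Figure D3:**
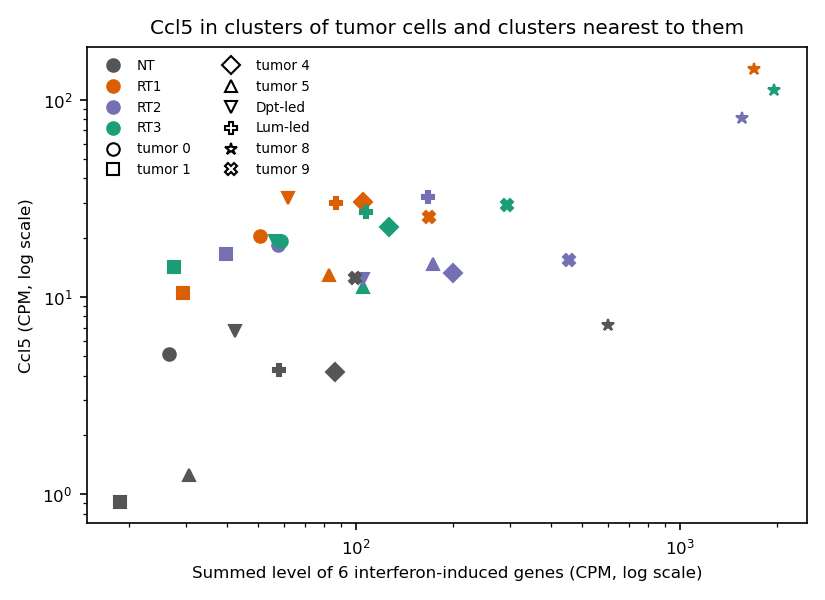
Ccl5 against the summed level of 6 interferon-induced genes, both in CPM on log axes, in the 6 tumor clusters and the Dpt-led and Lum-led clusters nearest to them. Each point is 1 cluster (shape) in 1 library (color). The 3 points at the top right are tumor cluster 8 in RT1, RT2 and RT3, and within each cluster NT is the lowest point on the Ccl5 axis.

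Transcripts of other cell types were also found in tumor cells and moved with this result. Lyz2, an abundant gene of macrophages and monocytes, had 612 UMIs in NT tumor cells and 3225, 4232 and 1926 in those of RT1, RT2 and RT3. Per 100 Lyz2 UMIs, tumor cells held 42.8 Ccl5 UMIs in NT and 42.2, 41.7 and 83.7 in RT, whereas macrophages held 1.68, 0.542, 1.08 and 1.81. Per 100 UMIs of Nkg7, a cytotoxic granule gene, tumor cells held 2620 Ccl5 UMIs or more in each library and NK cells 66.9 or fewer.

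The myeloid genes Ccl6, Ccl8, Ccl9 and Ccr1 were called higher in tumor cells as well, and their part in the Ccl5 result was not tested. The share of tumor cells with a Ccl5 UMI was 1.33% in NT and 4.28%, 5.54% and 4.30% in RT (median depths of 6742, 5147, 7334.5 and 5390 UMIs). Neutrophils, taken as a background, had 0% in NT (0 of 22 cells, which allows a share of up to 13.6%) and 3.83%, 1.22% and 2.42% in RT at median depths of 656.5 to 937 UMIs. With cells thinned to 1000 UMIs the tumor shares were 0.32% in NT and 1.70%, 1.70% and 1.71% in RT. Those of neutrophils were 3.23%, 0.93% and 0% in RT (0 of 39 cells in RT3, which allows detection in up to 7.69% by an approximate limit). The RT1 share of tumor cells is below that of neutrophils and is not read as expression. In RT2 the neutrophil share rests on 1 of 108 cells, and in RT3 the tumor share lies within the limit for neutrophils. The thinned shares of RT2 and RT3 are therefore not separated from this background either. This background is weak, since it rests on 2 of 62 cells in RT1, and since the neutrophils carried the LLC marker Rhox5 at 1135 CPM in NT and 696, 455 and 701 CPM in RT, against 1089 to 1327 CPM in tumor cells. Without the 8% of cells most like doublets, the mean log2 ratio in tumor cells was 2.49.

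Ccl5 in mature DC was also at least doubled in every RT library on the CPM scale, but not per 1000 cells, where the log2 ratio was 0.52 in RT3. Its level was 1451 CPM in NT (1135 to 1827, 72 UMIs) and 7876, 4525 and 3221 CPM in RT, log2 ratios of 2.43, 1.63 and 1.14. Of the 3 chemokines with enough UMIs in mature DC, Ccl5 met the rule, against 4.31% of 928 genes, and Ccl22 did not. Ccl17 met it too, but with 14 UMIs in NT it had enough UMIs only through the RT libraries. The call of Ccl17 is therefore not set against that share. The share of mature DC with a Ccl5 UMI was 58.8% in NT and 95.5%, 81.8% and 76.7% in RT.

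The other large named sources of Ccl5 were not doubled in every RT library. CD8 T cells were at 1224 CPM in NT and 1677, 1419 and 1117 CPM in RT, on both sides of NT. NK cells were at 634 CPM in NT and 738, 802 and 538 CPM in RT. Macrophages were at 264 CPM in NT and 146, 254 and 404 CPM in RT, again on both sides. Monocytes, by contrast, lay below NT in every RT library, at 208 CPM in NT (175 to 245) and 111, 163 and 73.0 CPM in RT, although the median gene of monocytes was 0.11 higher on the log2 scale. CD4 T and Treg cells also lay below, at 927 CPM in NT and 741, 352 and 483 CPM in RT from 59, 26, 46 and 24 cells. The direction in monocytes was not the same under every alternative, since RT2 lay above NT per 1000 cells and without integration of the libraries (log2 ratios of 0.41 and 0.32), and its share of monocytes with a Ccl5 UMI was 10.1% against 9.71% in NT. In CD4 T and Treg cells RT3 was above NT with cells thinned to 2000 UMIs (0.08), where 6 of its 24 cells remained. Of all genes tested, 25.4% lay below NT in every RT library in monocytes and 30.4% in CD4 T and Treg cells.

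Within macrophages, Ccl5 was concentrated in the cluster with the highest level of the interferon-induced genes (myeloid cluster 2, led by Ccl8 and C1qc). That cluster was at 606 CPM in NT and at 323, 562 and 840 CPM in RT. The largest macrophage cluster (myeloid cluster 1) was at 89.4 CPM in NT and at 51.1, 83.4 and 163 CPM in RT. In both clusters RT1 was the lowest and RT3 the highest.

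Ccl17 and Ccl22, the pair of Ccr4 ligands, were found in few cells. Mature DC had the highest level of both, and next came the MHC class II-led cluster. Over the sums of 10 named populations by library (38 sums of at least 20 cells), the gene most like Ccl17 among 12603 was Ccl22 (Pearson r = 0.96 of log2 levels), followed by Tspan33, Flt3, Rogdi and H2-M2. These sums share libraries and depth, and the likeness describes which cells held the transcripts.

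In mature DC, where both were found, the pair differed in their RT to NT ratio. Ccl22 was at 1169 CPM in NT (888 to 1511, 58 UMIs) and 1210, 1302 and 1214 CPM in RT, log2 ratios of 0.05, 0.15 and 0.05. All RT values were inside the counting interval of NT. Ccl17 in the same cells was at 282 CPM in NT (154 to 473) and 1158, 1400 and 686 CPM in RT, log2 ratios of 2.00, 2.27 and 1.25 (mean 1.84 ± 0.53).

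Counted against each other, mature DC held 24.1 Ccl17 UMIs per 100 Ccl22 UMIs in NT and 95.7, 108 and 56.5 in RT. The 14 Ccl17 UMIs of NT came from 1 of 17 mature DC, whereas 11 of 22, 19 of 33 and 13 of 30 cells had a Ccl17 UMI in RT1, RT2 and RT3. With a single positive cell in NT, this level is less certain than its counting interval shows. Ccl22 was detected in 9 of 17, 17 of 22, 22 of 33 and 19 of 30 cells. Over the 102 mature DC, 37 had both transcripts, 7 had only Ccl17 and 30 only Ccl22. Tumor cells gave a background of at most 0.31% of cells with a Ccl17 UMI and at most 0.045% with a Ccl22 UMI, at higher depth.

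In the MHC class II-led cluster Ccl17 was at 43.8 CPM in NT (23.3 to 74.9, 13 UMIs) and 206, 195 and 225 CPM in RT, log2 ratios of 2.18, 2.10 and 2.31 (mean 2.20 ± 0.11). The RT libraries lay close together and above the NT interval. By the rule of size, which Ccl17 met, 3.8% of 5679 genes were higher in this cluster. Ccl22 there amounted to 5, 16, 9 and 1 UMIs, too few to compare. This cluster was 1.09% of cells in NT and 1.42%, 1.87% and 1.23% in RT.

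The cluster was a mixture. The clustering at resolution 1.2 placed 373 of its 788 cells among conventional dendritic cells, which held all 127 of its Flt3 UMIs (the receptor on which dendritic cells depend) and most of its Cd209a, and left 415 cells with 1681 of its Retnla UMIs (a macrophage gene induced by type 2 cytokines) and no Flt3. Ccl17 was divided between both, with 194 UMIs in the first and 219 in the second. In the conventional DC subset its level was 39.97 CPM in NT and 572, 120 and 207 CPM in RT, and in the Retnla subset 47.7 CPM in NT and 59.5, 264 and 241 CPM in RT. RT1 was thus highest in the first subset and lowest of the 3 in the second. Ccl24 was on the other side of this division, with 1 UMI in the first subset and 90 in the second.

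Ccl11 UMIs were found mostly in fibroblasts and tumor-marked cells, and macrophages held at most 1.85% of them in any library. Fibroblasts had the highest level, at 712 CPM in NT (515 to 959) and 1053, 746 and 490 CPM in RT, from 8, 59, 101 and 149 cells. Their spread over clusters differed between NT and RT. A cluster marked by Postn and Tnc held 7 of these cells in NT and 20, 31 and 58 in RT. The other fibroblast clusters held 0 and 1 in NT, 16 and 23 in RT1, 45 and 25 in RT2 and 43 and 48 in RT3. The RT values lay on both sides of NT, and the mean log2 ratio was 0.02 ± 0.55. Genes most like Ccl11 over the named populations were Col14a1 (r = 0.94), Igfbp5, Slc4a4, Sema3c and Maob.

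The Lum-led cluster was the largest single holder of Ccl11 UMIs, and its level barely differed between libraries, at 54.6 CPM in NT (47.1 to 62.9) and 53.6, 54.0 and 64.4 CPM in RT (mean log2 ratio 0.06 ± 0.15). Tumor cells were far lower, at 1.73 CPM in NT (1.40 to 2.12) and 2.95, 3.21 and 4.49 CPM in RT, with a mean log2 ratio of 1.00 ± 0.32 that passed 1 in RT3 alone. In tumor cells every RT library was above the NT interval, and 32.4% of genes tested lay above NT in every RT library there. With cells thinned to 1000 UMIs, 0.14% of tumor cells in NT and 0.22%, 0.24% and 0.53% in RT had a Ccl11 UMI. These shares are below those of Ccl5, which were not separated from background, and whether tumor cells themselves made Ccl11 was not tested. Fibroblasts were 0.080% of cells in NT and 0.393%, 0.674% and 0.989% in RT, and the Lum-led cluster 4.40% in NT and 7.19%, 7.02% and 5.52% in RT.

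Ccl24 was a myeloid product. Monocytes had a higher level than macrophages on average (112 against 40.9 CPM over the 4 libraries), though their ranges overlapped. Monocytes were at 28.0 CPM in NT (16.9 to 43.7, 19 UMIs) and 126, 187 and 108 CPM in RT, log2 ratios of 2.14, 2.70 and 1.91 (mean 2.25 ± 0.41). Macrophages were at 18.8 CPM in NT (13.7 to 25.1, 45 UMIs) and 43.9, 50.5 and 50.5 CPM in RT, log2 ratios of 1.21, 1.41 and 1.42 (mean 1.35 ± 0.12).

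Ccl24 met the rule of size in macrophages, where 4.01% of 10577 genes were higher. It met the rule in monocytes too, but with 19 UMIs in NT it had enough UMIs only through the RT libraries. The monocyte call is therefore not set against the 5.86% of 8810 genes that were higher there. Neither population met the rule for Ccl5, the only other member with enough UMIs in them. The share of monocytes with a Ccl24 UMI was 2.43% in NT and 9.85%, 14.4% and 7.38% in RT, and 2.11%, 6.93%, 9.07% and 7.02% with cells thinned to 1000 UMIs. In tumor cells, as a background, it was at most 0.21%.

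Myeloid clusters 1 and 2 also differed in Ccl24, and in RT the order of this pair was the opposite of that for Ccl5. The other macrophage clusters are not compared here. Myeloid cluster 1 had 7.45 CPM in NT (6 UMIs) and 54.8, 50.9 and 59.6 CPM in RT. The interferon-type myeloid cluster 2, where Ccl5 was highest, was at 24.97 CPM in NT and at 22.8, 39.2 and 42.8 CPM in RT. Of 7010 macrophages, 1193 had a Ccl5 UMI alone, 464 a Ccl24 UMI alone and 59 both. Both genes were sparse, so mostly single-positive cells are the rule at such rates. Of macrophages with a Ccl24 UMI, 16.7% in NT and 8.42%, 13.1% and 11.5% in RT also had Ccl5. Among all macrophages those shares were 23.7% in NT and 12.9%, 19.4% and 21.2% in RT, and exclusion of one gene by the other was not tested. Genes most like Ccl24 were Shtn1 (r = 0.91), Fgd2, Ly86, Pld4 and Fcgr1, which include known myeloid genes.

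**Figure D4:**
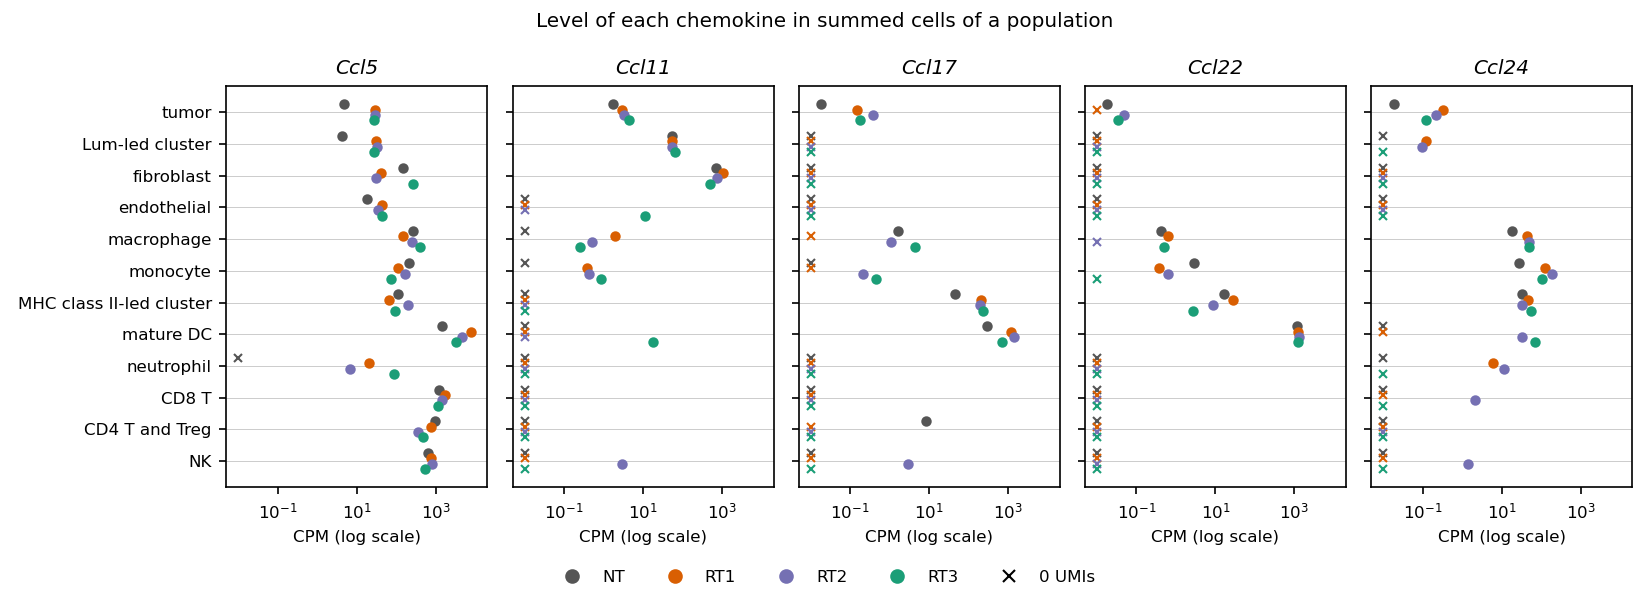
Level of each chemokine in the summed cells of 10 named populations and 2 unnamed clusters, in CPM on a log axis, with 1 point per library. Crosses at the left edge mark populations with 0 UMIs and have no position on the axis. Ccl17 and Ccl22 peak in mature DC, where the 4 points of Ccl22 coincide and NT is the lowest point of Ccl17.

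To divide each difference between the mix of cells and the level per cell, the ratios were recomputed with one of them held at NT. Per 1000 cells, Ccl24 had a mean log2 ratio of 3.05 ± 0.83. With the cell shares of NT and the levels of RT it was 1.91 ± 0.62, and with the levels of NT and the shares of RT 1.07 ± 0.28. Ccl11 was the reverse case, at 0.94 ± 0.26 as measured, 0.42 ± 0.29 with NT shares and 1.08 ± 0.26 with NT levels. The shares of cells, at the NT levels as counted, thus gave as large a ratio. The NT level of fibroblasts in this split rests on 43 Ccl11 UMIs in 4 of 8 cells. It also depends on the scale, since the mean fibroblast log2 ratio of Ccl11 was 0.02 in CPM and -1.22 per 1000 cells.

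For Ccl17 the measured 1.94 ± 0.71 became 1.64 ± 0.54 with NT shares and 0.57 ± 0.21 with NT levels. For Ccl5 the measured 1.04 ± 0.52 became 0.89 ± 0.33 and 0.47 ± 0.26. Ccl22, at -0.28 ± 0.55, became -0.48 ± 0.38 and 0.28 ± 0.24. The split is arithmetic over all named populations and unnamed clusters, and the parts need not add up.

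**Figure D5:**
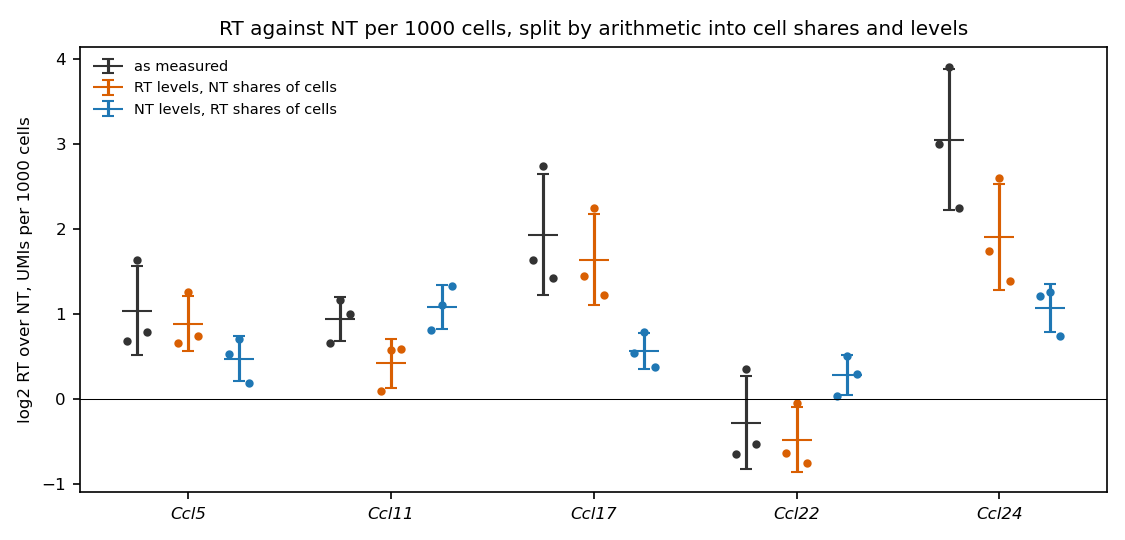
Log2 ratio of RT over NT in UMIs per 1000 cells for each chemokine, as measured (black), with RT levels and NT shares of cells (orange) and with NT levels and RT shares of cells (blue). Dots are RT1 to RT3 in that order, dashes and bars the mean ± SD (n = 3). For Ccl11 the blue mean is above the black one (1.08 against 0.94), though in RT2 blue is slightly below black, and for Ccl17, Ccl5 and Ccl24 the orange values are above the blue ones. The NT level of fibroblasts, which enters the blue values of Ccl11, rests on 8 cells.

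Of the receptors, Ccr1 was abundant and Ccr3 and Ccr4 were scarcely found. Ccr1, a receptor of Ccl5 on neutrophils and other myeloid cells, was at 13.2 CPM in NT and 53.7, 43.9 and 24.0 CPM in RT, and its level was highest in neutrophils, at 254 CPM in NT and 581, 569 and 446 CPM in RT.

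Ccr4, the receptor of Ccl17 and Ccl22, had 6 UMIs in NT and 0, 0 and 2 in RT. Ccr3, the receptor of Ccl11 and Ccl24, had 9 UMIs in NT and 30, 39 and 10 in RT. The other eosinophil markers were near 0 as well, with Siglecf at 3, 12, 10 and 2 UMIs and Epx at 0, 0, 7 and 0. Prg2 was at 9, 5, 84 and 3 UMIs and was above Ccr3 in RT2 alone, and the list of 6 measured markers summed to 0.318, 0.605, 1.39 and 0.200 CPM. No cluster was named eosinophil.

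The decoy receptor Ackr1, which binds several of these chemokines without signaling, had 15 UMIs in NT and 21, 112 and 79 in RT. Fibroblasts held many of them, at 0 UMIs in NT and 18, 63 and 64 in RT (124, 145 and 138 CPM). The NT value rests on 8 fibroblasts, and fibroblasts of NT and RT were spread differently over clusters. Dpp4, a protease that trims Ccl5, Ccl11 and Ccl22, was at 0.852 CPM in NT and 1.06, 2.81 and 1.56 CPM in RT. In fibroblasts, with the same difference in clusters, it was at 82.8 CPM in NT and 241, 312 and 175 CPM in RT. Ccr1, Ccr3 and Ackr1 had enough UMIs to be tested in the whole library, and none of the 3 met the rule of size.

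Of 6 other ligands of the same receptors, Ccl6, Ccl8 and Ccl9 met the rule and Ccl3, Ccl4 and Ccl7 did not, with a median log2 ratio of 1.55. Ccl8, a ligand made by macrophages, was at 66.7 CPM in NT and 798, 621 and 310 CPM in RT. Ccl6 was at 266 CPM in NT and 1899, 2042 and 938 CPM in RT, and Ccl9 at 71.3 CPM in NT and 447, 466 and 213 CPM in RT. As for Ccl24, RT3 was the lowest RT library for each of these, and it also had the lowest share of macrophages among the 3. A link between these levels and that share was not tested.

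Of the 9 genes of type 2 signaling, 6 had enough UMIs (median log2 ratio 0.65) and Il33 alone was called higher. Il33, an alarmin released by damaged stromal cells, was at 0.852 CPM in NT and 4.07, 2.86 and 5.28 CPM in RT. Fibroblasts, whose spread over clusters differed between NT and RT, had it at 232 CPM in NT and 716, 468 and 549 CPM in RT. Il4 and Il13, cytokines that induce Ccl11, Ccl17 and Ccl24 in many cells, had at most 3 and 24 UMIs in any library, and Il5, a growth factor of eosinophils, at most 7. The receptor gene Il4ra was above NT in every RT library, at 11.2 CPM in NT and 28.4, 37.3 and 17.1 CPM in RT, as was Stat6, at 43.5 CPM in NT and 59.3, 75.4 and 43.9 CPM in RT. The RT3 value of Stat6 lay within the NT counting interval (42.0 to 45.1). Csf2 lay below NT in every RT library, at 13.1 CPM in NT and 8.49, 6.37 and 11.6 CPM in RT. Over the whole library 34.4% of genes lay above NT in every RT library and 31.3% below.

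Of the 9 genes of interferon and NF-kB signaling, Irf7 alone met the rule and the median log2 ratio was 0.41. It was at 5.13 CPM in NT and 13.6, 30.8 and 12.1 CPM in RT. Irf7 is a transcription factor that amplifies the interferon response. Ifnb1, which encodes interferon beta, lay below NT in every RT library, at 11.2 CPM in NT and 9.20, 2.88 and 6.93 CPM in RT, and met the rule as lower in macrophages (272 CPM in NT and 65.9, 14.03 and 109 CPM in RT). By this rule 2.94% of genes were lower in macrophages. Irf1 also lay below NT in every RT library, at 787 CPM in NT and 428, 608 and 620 CPM in RT. Rela and Nfkb1, subunits of NF-kB, were at 88.4 and 143 CPM in NT, and at 47.8 to 67.1 and 103 to 147 CPM in RT.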

How the data were processed

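The authors made 3′ single-cell libraries (SeekOne MM kit), ran them on a NovaSeq sequencer and counted UMIs with SeekOne Tools. The submitters' processing notes name STAR 2.5.1b, featureCounts, Subread 1.6.4, Cell Ranger and the build GRCm39 (mm39). The authors deposited raw UMI counts per gene and barcode in 1 table for each library. The tables of NT, RT1 and RT3 listed 32285 genes and that of RT2 18605, and genes missing from one of them (0.0072% of UMIs or less in each library) were dropped.

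Barcodes passed with at least 200 genes and no more than 20% mitochondrial UMIs. No doublets were removed before deposit as far as the sources state, and none were removed here except in an alternative. After scaling to 10000 UMIs and a log transform, the 2000 most variable genes, without chemokines, their receptors and the pathway lists, were reduced to 30 principal components, integrated over libraries with a rewritten Harmony (theta 2, lambda 1, sigma 0.1) and clustered by Leiden over 20 neighbors at resolution 0.8 (python-igraph 0.11.9, scikit-learn 1.9.0, numpy 2.4.6), and each major class was clustered again. Names come from fixed marker lists and mean that cells resemble that type, with the suffix "-like" left off. The score thresholds, and the rule that a cluster without a marker of its own among its top 10 genes stays unnamed, were set after clusterings were seen, so names and shares may differ from the study's. The 5 chemokines and all lists were chosen with earlier results of these data known.

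Each population's UMIs were summed within a library. Ratios are log2 of RT over NT CPM with 0.5 UMI added to each sum. Intervals are exact Poisson for sums, at 95%, and molecules of 1 cell are not independent draws. A gene was called where the ratio was at least 1 in 1 direction in every RT library, among genes with at least 40 UMIs. The named genes are the 5 chemokines, the pathway lists, cell type markers and, for each chemokine, the 5 genes with the highest Pearson correlation over population sums of at least 20 cells. The scripts for ratios and cell shares were tested on simulated data. Alternatives were 500 genes or 10% mitochondrial UMIs as the filter, removal of likely doublets, no integration, resolutions 0.5 and 1.2, UMIs per 1000 cells, thinning to 2000 UMIs, 2 UMIs added and leaving out each RT library. Thinning to 1000 UMIs, the division of the MHC class II-led cluster and the alternatives for Ccl5 in monocytes and in CD4 T and Treg cells were chosen after seeing the data. A receptor gene and an unnamed myeloid cluster are not reported here. The authors' protein, tissue and in vitro assays were not analysed here.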

Additional observations from a re-analysis of the deposited data

Results flagged for a closer look

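Ccl5 differed between NT and RT in opposite directions in different cells. Every RT library lay above NT in tumor cells (mean log2 ratio 2.55) and in mature DC (1.74), and every RT library lay below NT in monocytes (-0.92) and in CD4 T and Treg cells (-0.86). In tumor cells Lyz2, a myeloid gene, was also higher (612 UMIs in NT and 3225, 4232 and 1926 in RT), with 42.8 Ccl5 UMIs per 100 Lyz2 UMIs in NT and 42.2, 41.7 and 83.7 in RT, and its part in the Ccl5 result was not tested. The thinned share of RT1 tumor cells with a Ccl5 UMI was below that of neutrophils, and the RT2 and RT3 shares were not separated from it. By the rule of doubling 3.7% of genes were higher in tumor cells and 4.31% in mature DC, and 25.4% of genes lay below NT in every RT library in monocytes and 30.4% in CD4 T and Treg cells. RT2 monocytes lay above NT without integration and per 1000 cells, and RT3 CD4 T and Treg cells with cells thinned to 2000 UMIs. The difference between these populations was not tested, since NT is 1 library. Mature DC and CD4 T and Treg cells in NT numbered 17 and 59.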

How the results depend on the processing

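No paired analysis was possible because NT is 1 pooled library, so that the groups share fewer than 2 replicates that could be paired. Of the recomputed values, 257 stayed within the SD of the RT libraries, or within 1.5 times for the count of doubled chemokines, and 35 moved, and the cause of each move was not tested. Of 219 recomputed log2 ratios, 16 had the opposite sign to the reported one, 0 of them for a reported ratio of 1 or more in size, and all were ratios of Ccl5 in macrophages or NK cells, of Ccl11 in fibroblasts or the Lum-led cluster, or of Ccl22. The count of chemokines at least doubled in every RT library fell from 4 to 2 on UMIs per 1000 cells and to 2 with cells thinned to 2000 UMIs. Ccl11 over the whole library then had a mean log2 ratio of 0.94 per 1000 cells and 1.04 thinned, and 1.33 without the 8% of cells most like doublets.

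In tumor cells the mean log2 ratio of Ccl5 was 2.49 without likely doublets, 2.60 without integration of the libraries, 2.63 at resolution 0.5, 2.46 per 1000 cells and 2.07 thinned. In monocytes, recomputed after seeing the data, it was -0.27 without integration. In NK cells it was 0.41 without integration, 0.48 per 1000 cells and 0.48 thinned. The macrophage share of Ccl5 was 24.5% without integration, 25.4% at resolution 0.5 and 37.5% thinned.

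For Ccl11 the tumor share was 27.7% at resolution 1.2, the fibroblast ratio 0.94 without likely doublets and -1.22 per 1000 cells, and the ratio in the Lum-led cluster -0.13 without likely doublets and -0.25 thinned. Fibroblasts passed tumor cells as the first named source of Ccl11 without integration, at resolution 0.5 and thinned. Ccl17 had a mature DC share of 23.1% and a mature DC ratio of 2.82 thinned, and in the MHC class II-led cluster a ratio of 2.04 with at most 10% mitochondrial UMIs, 1.79 thinned and 2.07 with 2 UMIs added.

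Ccl22 in mature DC had a ratio of 0.24 without likely doublets, -0.39 per 1000 cells and 0.17 thinned. For Ccl24 the macrophage share was 53.9% at resolution 1.2, the macrophage ratio 1.12 without integration, 1.70 at resolution 1.2 and 1.09 thinned, and the monocyte ratio 2.86 without integration.

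Leaving out each RT library in turn gave whole-library ratios of 1.10 to 1.34 for Ccl5, 1.1 to 1.2 for Ccl11, 1.88 to 2.36 for Ccl17, -0.23 to 0.03 for Ccl22 and 2.98 to 3.63 for Ccl24. Counting error limits Ccl17 and Ccl22 most, with 38 and 72 UMIs in NT, and fibroblasts and mature DC rest on 8 and 17 NT cells.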

Other observations

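An unnamed lymphoid cluster of 135 cells was led by the mast cell genes Cma1 and Cpa3 and the granzyme Gzmf, and was left unnamed because it held tumor markers too. Cpa3 was listed at 0 in the whole RT2 library. The cluster carried Ccl5 at 156 CPM in NT and 304 (RT1), 395 (RT2) and 244 CPM (RT3). A second unnamed lymphoid cluster (274 cells, led by Gzmb, Il2rb and Xcl1) carried Ccl5 at 1114 CPM in NT and 1328, 1489 and 1789 CPM in RT, beside 1117 to 1677 CPM in CD8 T cells. Ccl17 was concentrated in single cells, with up to 14 UMIs in 1 cell in NT and up to 63 in 1 cell of RT2, and the 10 cells with most Ccl17 held 94.7% of it in NT and 52.8% (RT1), 59.6% (RT2) and 62.3% (RT3). For Ccl5 the 10 highest cells held between 10.8% and 12.4% in each library.

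A cluster of 1205 cells with both macrophage genes (Lyz2, C1qc and C1qb) and tumor genes (Rhox5 at 702 to 973 CPM) made up 0.882% of cells in NT and 2.78%, 2.58% and 2.07% in RT, and had the deepest cells of the myeloid clusters. It carried Ccl24 at 4.99 CPM in NT and 19.3, 29.1 and 22.6 CPM in RT, and Ccl5 at 29.9 CPM in NT and 50.9, 79.7 and 85.6 CPM in RT. Whether these were doublets was not tested.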
